A study of Canis lupus familiaris with 6 samples.

Results

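Semaphorins are secreted or membrane-bound ligands that were first known for steering growing axons, and plexins are their main receptors. A semaphorin binds a plexin through the sema domain that both families carry, and the cytoplasmic part of the plexin then acts on small GTPases that control adhesion and the cytoskeleton. In blood, members of both families sit on lymphocytes, monocytes, granulocytes, platelets and red cells, where they are known for roles in costimulation and migration. The 9 genes described here were 6 semaphorins (SEMA4A, SEMA4B, SEMA4C, SEMA4D, SEMA4F and SEMA7A) and 3 plexins (PLXNB2, PLXNC1 and PLXND1), out of 31512 genes in the table. They were chosen by name with the FPKM of the same 6 dogs and the contrast between the groups already known, so every difference between the groups given for them is a description and not independent evidence. No cut on values was stated for the choice, and the set holds genes from under 1 FPKM to over 100 FPKM. The whole family in the table was 31 genes, with 20 semaphorins, 9 plexins and 2 neuropilins, which are co-receptors of class 3 semaphorins.

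The study fed adult Beagle dogs a snack for 30 days and compared whole blood of a control group, which ate the snack without the supplement, with that of a CPP-Se group, which ate the same snack with a chelate of casein phosphopeptide and selenium. Both groups ate the same maintenance food. Sequencing covered 3 dogs of each group, with 1 library for each dog, and each dog is called by its group and replicate number. Values are FPKM, which count the fragments of a gene relative to its length and to the size of the library, and gene positions are in the dog genome of Ensembl release 100.

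The FPKM gave back whole reads for 100% of genes, each within 0.01 of a read, with 6598173 to 7665265 reads on genes in the control dogs and 6780213 to 8067034 in the CPP-Se dogs. The library size implied by the FPKM was 0.882 to 1.05 times the reads on genes in 5 dogs and 1.65 times in CPP-Se dog 2. Hemoglobin genes took 36.6% of the reads on genes in CPP-Se dog 2 and 48.7% to 55.9% in the other 5. Values of CPP-Se dog 2 therefore differ most between scalings, and the limit this sets is given with the results below.

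Of the 9 genes, 7 reached 1 FPKM in the mean of all 6 dogs and were tested among 9847 genes with limma on log2(FPKM + 1), with Benjamini-Hochberg adjustment over all of them. SEMA4C and PLXND1 were below that level and were fitted only under lower filters. SEMA4F passed it only through the CPP-Se group, since its control mean was 0.766 FPKM. A gene was called differentially expressed (DEG) when its adjusted p was under 0.05 and it differed at least 1.5-fold, and 3 of the 9847 genes were called (0.0305%), all 3 lower in the CPP-Se group. None of the 7 genes was called, which is 0 in limma, although 4 of them had an unadjusted p under 0.05, against 1572 of all genes (16.0%). A negative binomial model fitted to the recovered reads called 2 of them, PLXNC1 and SEMA4F, and 394 of all genes (4.0%). The limma-voom fit with sample quality weights called 1, PLXNC1, and 156 of all genes (1.58%).

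The groups did not overlap for 6 of the 7 tested genes, against 2269 of all tested genes (23.0%). SEMA4A and SEMA4F were higher in all 3 CPP-Se dogs than in any control dog (10.4% of all genes), while SEMA4B, SEMA4D, SEMA7A and PLXNC1 were lower in all 3 (12.6%). PLXND1, which was not tested, was also lower in all 3. SEMA4F and PLXND1 were the ones that stayed apart under 4 other scalings between dogs. The contrast had been used to choose the genes, so nothing is read from these counts against the background. The median log2 fold change was -0.39 over the 7 genes, -0.13 over the 13 family genes tested and 0.00 over all genes tested.

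**Figure D1:**
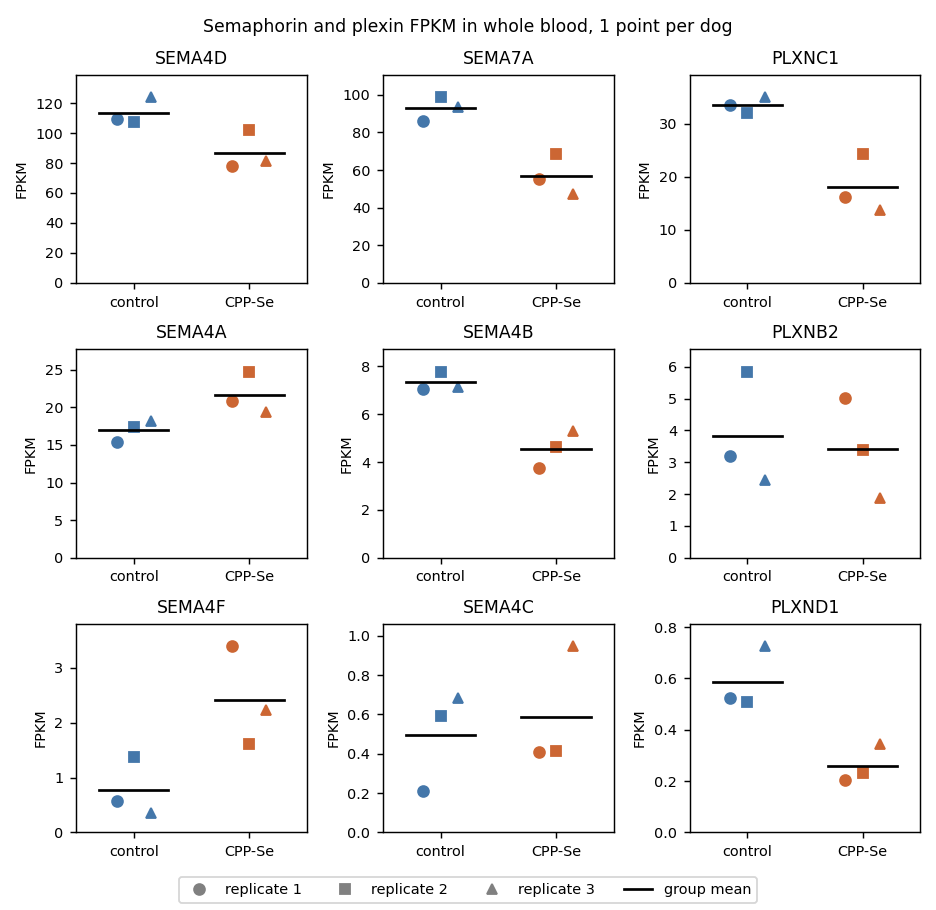
FPKM of the 9 genes (vertical axes from 0) in 3 control and 3 CPP-Se dogs, with 1 point per dog, marker shape for the replicate number and a line for the group mean. PLXNC1 lay between 31.9 and 35.0 FPKM in the control dogs and between 13.7 and 24.4 FPKM in the CPP-Se dogs, and PLXNB2 and SEMA4C overlapped between the groups.

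SEMA4D (ENSCAFG00000002180, chr1:96814674-96878968, plus strand), also called CD100, is a transmembrane semaphorin of T cells and other leukocytes that can be shed from the surface and binds B-type plexins and CD72. It had the highest level of the family and ranked 434 of 9847 genes by mean FPKM. It measured 109, 107 and 124 FPKM in control dogs 1, 2 and 3 and 77.8, 102 and 81.2 FPKM in CPP-Se dogs 1, 2 and 3. The highest CPP-Se value lay just below the lowest control value. The group means were 113 ± 9.31 and 86.9 ± 13.0 FPKM (SD, n = 3 dogs each), with a log2 fold change of -0.39 (SE 0.19, 95% interval -0.83 to 0.06, limma adjusted p = 0.373).

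SEMA7A (ENSCAFG00000017916, chr30:37531971-37566645, minus strand), which is held in the membrane by a GPI anchor, carries a blood group antigen of red cells and binds PLXNC1 and β1 integrins. It measured 86.3, 98.9 and 93.8 FPKM in the control dogs and 55.4, 68.4 and 47.2 FPKM in the CPP-Se dogs. The means were 93.0 ± 6.33 and 57.0 ± 10.7 FPKM (SD, n = 3 each), a log2 fold change of -0.71 (SE 0.20, 95% interval -1.17 to -0.25, limma adjusted p = 0.184). All 3 CPP-Se dogs lay below the control dogs. Its span overlaps that of UBL7 on the same strand, and UBL7 had a log2 fold change of -0.06 (limma adjusted p = 0.954). How shared reads were handled is not given in the sources used here, so reads in that overlap cannot be told apart.

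PLXNC1 (ENSCAFG00000006200, chr15:34279932-34417720, plus strand), the receptor of SEMA7A, had the highest level among the plexins. It measured 33.4, 31.9 and 35.0 FPKM in the control dogs and 16.3, 24.4 and 13.7 FPKM in the CPP-Se dogs. The control dogs were close together and the CPP-Se dogs were spread below them, with CPP-Se dog 2 nearest. The means were 33.5 ± 1.54 and 18.1 ± 5.55 FPKM (SD, n = 3 each), a log2 fold change of -0.89 (SE 0.23, 95% interval -1.42 to -0.36, limma adjusted p = 0.171). The adjusted p was 0.0175 in the negative binomial model and 0.0459 in limma-voom with sample quality weights, the settings in which it was called.

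SEMA4A (ENSCAFG00000016857, chr7:41672120-41692460, minus strand), a transmembrane semaphorin known as a costimulator of T cells, differed the other way. It measured 15.4, 17.4 and 18.2 FPKM in the control dogs and 20.9, 24.8 and 19.4 FPKM in the CPP-Se dogs. The lowest CPP-Se dog was close to the highest control dog. The means were 17.0 ± 1.47 and 21.7 ± 2.79 FPKM (SD, n = 3 each), a log2 fold change of 0.33 (SE 0.18, 95% interval -0.08 to 0.74, limma adjusted p = 0.409). SEMA4A lies within the span of LMNA on the same strand, and LMNA had a log2 fold change of 0.02 (limma adjusted p = 0.975). Reads shared with LMNA cannot be told apart, since their handling is not given in the sources used here. The SEMA4A value is therefore uncertain, also in the ratios and shares below.

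SEMA4B (ENSCAFG00000012082, chr3:53121775-53184118, plus strand), another transmembrane class 4 semaphorin, measured 7.08, 7.78 and 7.13 FPKM in the control dogs and 3.75, 4.63 and 5.31 FPKM in the CPP-Se dogs. The groups were apart. The means were 7.33 ± 0.394 and 4.56 ± 0.780 FPKM (SD, n = 3 each), a log2 fold change of -0.59 (SE 0.18, 95% interval -1.01 to -0.17, limma adjusted p = 0.202).

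SEMA4F (ENSCAFG00000008321, chr17:48479659-48506660, minus strand), a class 4 semaphorin best known from the nervous system, had the largest fold difference of the 9. It measured 0.576, 1.38 and 0.345 FPKM in the control dogs, from 17, 38 and 12 reads, and 3.39, 1.61 and 2.23 FPKM in the CPP-Se dogs, from 94, 93 and 59 reads. CPP-Se dog 2 lay close to control dog 2 and the rest were well apart. The means were 0.766 ± 0.542 and 2.41 ± 0.905 FPKM (SD, n = 3 each), a ratio of 3.15. On the log2(FPKM + 1) scale, which understates the change of a low gene, the log2 fold change was 0.96 (SE 0.32, 95% interval 0.22 to 1.70, limma adjusted p = 0.224), and it was 1.66 with a pseudocount of 0.1. The adjusted p was 0.0136 in the negative binomial model, where it was called.

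PLXNB2 (ENSCAFG00000000673, chr10:16963396-16974705, plus strand), a receptor of class 4 semaphorins, measured 3.19, 5.85 and 2.44 FPKM in the control dogs and 5.01, 3.39 and 1.87 FPKM in the CPP-Se dogs. The groups overlapped throughout. The means were 3.83 ± 1.79 and 3.42 ± 1.57 FPKM (SD, n = 3 each), a log2 fold change of -0.13 (95% interval -0.94 to 0.68, limma adjusted p = 0.894), and its sign turned under other settings. Its span overlaps SELENOO, a selenoprotein gene on the opposite strand, which measured 11.1 ± 1.97 FPKM in the control dogs and 22.3 ± 8.63 FPKM in the CPP-Se dogs (SD, n = 3 each, limma adjusted p = 0.213). Whether the counting used strand is not given in the sources used here, so reads in the overlap cannot be told apart and the PLXNB2 value is uncertain.

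SEMA4C (ENSCAFG00000002393, chr10:45106666-45115592, plus strand), a ligand of PLXNB2, measured 0.212, 0.590 and 0.684 FPKM in the control dogs and 0.407, 0.413 and 0.947 FPKM in the CPP-Se dogs. These came from 5 to 19 and from 9 to 20 reads, and the groups overlapped. PLXND1 (ENSCAFG00000004613, chr20:5554708-5610122, plus strand), a receptor of SEMA3E, measured 0.522, 0.508 and 0.725 FPKM in the control dogs and 0.202, 0.231 and 0.344 FPKM in the CPP-Se dogs, from 20 to 36 and from 8 to 19 reads. The PLXND1 groups were apart, at 0.585 ± 0.122 and 0.259 ± 0.0750 FPKM (SD, n = 3 each), but both genes were too low for the test used. With a filter of 0.1 FPKM the log2 fold change was 0.08 for SEMA4C (limma adjusted p = 0.904) and -0.33 for PLXND1 (limma adjusted p = 0.479), and without a filter the adjusted p in limma was 0.887 and 0.401.

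The order of levels was not the same in both groups. In the control dogs SEMA4D, SEMA7A, PLXNC1, SEMA4A, SEMA4B and PLXNB2 followed each other without overlap between neighbours, and SEMA4F, PLXND1 and SEMA4C, at the low end, overlapped. In the CPP-Se dogs SEMA4A and PLXNC1 overlapped, and so did SEMA4B with PLXNB2 and PLXNB2 with SEMA4F. Within a dog, SEMA4A FPKM was 0.459 to 0.546 times that of PLXNC1 in the control dogs and 1.02 to 1.41 times in the CPP-Se dogs, so SEMA4A was above PLXNC1 in all 3 CPP-Se dogs and in 0 of 3 control dogs. A ratio within a dog does not depend on the scaling between libraries. This pair was chosen after its values were seen.

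The same held for the shares of each gene in the summed FPKM of its family within a dog. SEMA4D took 43.4% to 46.8% of semaphorin FPKM in the control dogs and 42.7% to 48.3% in the CPP-Se dogs, which overlap. SEMA7A took 35.4% to 40.1% and 28.1% to 31.5%. SEMA4A took 6.38% to 7.07% and 11.4% to 11.5%. The share of SEMA4A was thus higher and that of SEMA7A lower in every CPP-Se dog than in any control dog, CPP-Se dog 2 included. SEMA4F took 0.130% to 0.558% and 0.742% to 1.86%. Among plexins, PLXNC1 took 67.4% to 70.8% in the control dogs and 45.3% to 63.0% in the CPP-Se dogs. PLXNB1, outside the 9 genes, took 5.17% to 7.23% and 11.2% to 15.3%. PLXNA1, also outside them, took 5.16% to 6.45% and 8.14% to 10.9%, although its FPKM overlapped between the groups. The shares of SEMA4B, PLXNB2, PLXND1 and the remaining plexins overlapped between the groups. A share is a part of a whole, so a lower share of one gene raises the others. The summed semaphorin FPKM was 241 to 265 in the control dogs and 168 to 217 in the CPP-Se dogs, and the summed plexin FPKM was 47.3 to 50.0 and 30.3 to 38.6. Unlike the shares, these sums depend on the scaling. At a common FPKM sum the semaphorins summed to 222 to 269 and 145 to 334 and the plexins to 42.7 to 50.7 and 26.1 to 59.3, with CPP-Se dog 2 above every control dog and the other 2 CPP-Se dogs below. The sums also overlapped when scaled to reads on genes or to reads outside hemoglobin genes.

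**Figure D2:**
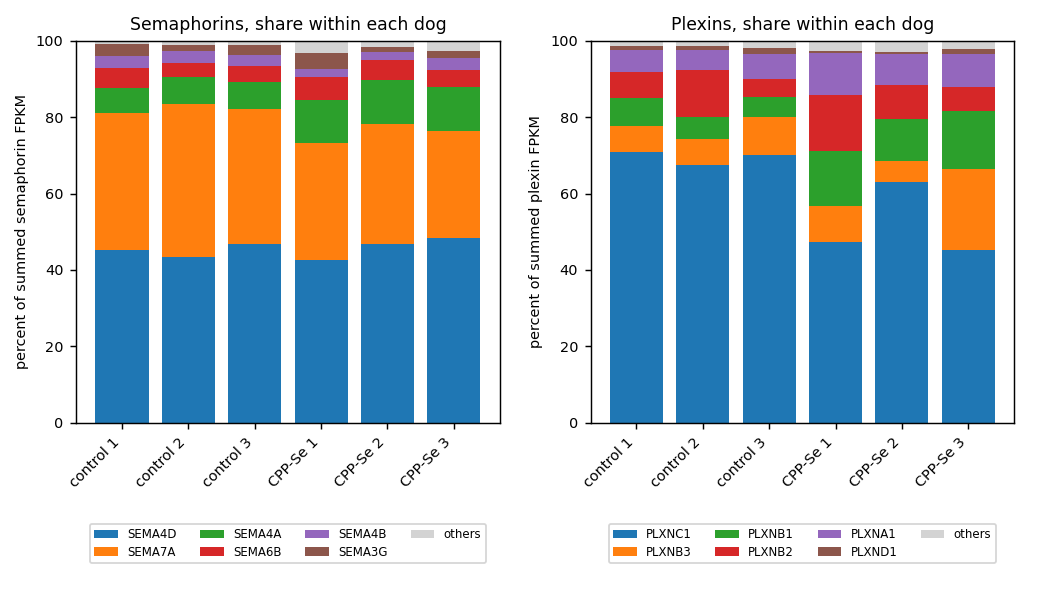
Share of each gene, in percent, in the summed FPKM of the semaphorins (left) and of the plexins (right) for each dog, with the less abundant genes pooled as others. SEMA4A took 6.38% to 7.07% in the control dogs and 11.4% to 11.5% in the CPP-Se dogs, and PLXNC1 took 67.4% to 70.8% and 45.3% to 63.0%.

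Ligand and receptor pairs were set side by side within each dog. SEMA7A was 2.58 to 3.10 times PLXNC1 in the control dogs and 2.81 to 3.44 times in the CPP-Se dogs, which overlap, and both genes measured lower in the CPP-Se group. SEMA4D was 31.9 to 48.0 times its receptor PLXNB1 in the control dogs and 15.6 to 23.5 times in the CPP-Se dogs, without overlap. Against PLXNB2, another B-type plexin, it was 18.3 to 50.8 and 15.5 to 43.3 times, which overlap. CD72, the B cell receptor of SEMA4D, was at 0.427 ± 0.625 and 0.694 ± 0.367 FPKM (SD, n = 3 each) and was not tested. SEMA3E, a ligand of PLXND1, was at 0 reads in all 6 dogs, which allows up to 3 reads in each.

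The separation of the groups depended on the scaling for most of the genes. SEMA4F and PLXND1 were apart in the deposited FPKM and under each of 4 other scalings. Of these, the median of ratios was close to the deposited FPKM and shifted the median log2 fold change of all genes by 0.0019. SEMA4A, SEMA4B and PLXNC1 overlapped when FPKM was scaled to a common sum or to reads on genes, and SEMA4D and SEMA7A overlapped also when scaled to reads outside hemoglobin genes. Of the 9 genes, 7 were apart in the deposited FPKM and 7 with the median of ratios (23.0% of all tested genes in each). At a common sum 2 were apart (13.8% of all tested genes), as were 2 when scaled to reads on genes (12.6%) and 5 when scaled to reads outside hemoglobin genes (19.8%). These scalings shifted the median of all genes by 0.117 to 0.131 on the log2 scale, upward, and relative to that shift the log2 fold changes moved by at most 0.27, the most for SEMA4F. Without CPP-Se dog 2 the log2 fold change was -1.11 for PLXNC1 (limma adjusted p = 0.125), -0.85 for SEMA7A (limma adjusted p = 0.148) and 1.14 for SEMA4F (limma adjusted p = 0.214). In the same fit it was -0.51 for SEMA4D, -0.60 for SEMA4B and -0.15 for PLXNB2, and SEMA4A was nearer to no change, at 0.23 (limma adjusted p = 0.599). Without CPP-Se dog 3 it was -0.72 for PLXNC1, -0.58 for SEMA7A and 0.98 for SEMA4F.

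**Figure D3:**
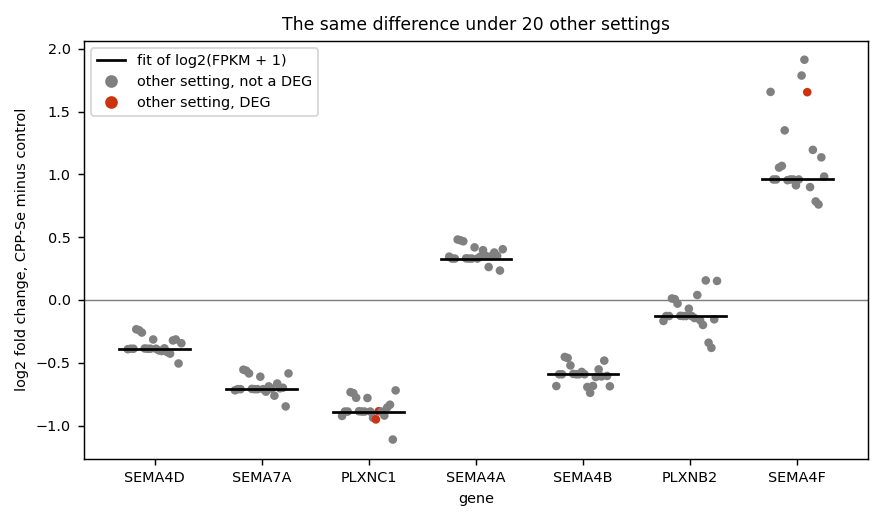
Log2 fold change (CPP-Se minus control) of the 7 tested genes in the limma fit of log2(FPKM + 1), as a line, and under 20 other settings, as points, with red for a setting in which the gene was called. PLXNC1 stayed between -1.11 and -0.72 and SEMA4F between 0.76 and 1.91, while PLXNB2 lay on both sides of 0.

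Of the other family genes, 6 were tested. PLXNB1, the main receptor of SEMA4D, measured 3.42, 2.70 and 2.58 FPKM in the control dogs and 4.98, 4.33 and 4.62 FPKM in the CPP-Se dogs. The means were 2.90 ± 0.452 and 4.64 ± 0.324 FPKM (SD, n = 3 each), a log2 fold change of 0.54 (SE 0.18, limma adjusted p = 0.231), and the groups were apart under all 5 scalings. The groups overlapped for the other 5, SEMA3G, SEMA6B, SEMA6C, PLXNA1 and PLXNB3, with log2 fold changes from -0.44 to 0.13. Both neuropilins were under the level for testing. NRP1 was at 0.428 ± 0.253 and 0.652 ± 0.189 FPKM and NRP2 at 0.465 ± 0.252 and 0.523 ± 0.480 FPKM (SD, n = 3 each). The groups of NRP1 overlapped in the deposited FPKM and were apart, higher in the CPP-Se group, at a common FPKM sum and when scaled to reads on genes. Of the 20 semaphorins, 6 were at 0 reads in every dog (SEMA3A, SEMA3D, SEMA3E, SEMA5B, SEMA6A and SEMA6D), and all 9 plexins were detected. SEMA5A had 0 reads in each control dog, against 2, 3 and 4 reads in CPP-Se dogs 1, 2 and 3, around the floor of 3 reads. Over the 13 tested family genes, 5 had an unadjusted p under 0.05 (16.0% of all genes) and 7 had groups apart (23.0% of all genes), of which the CPP-Se group was higher in 3 and lower in 4. Of these 7, 6 belong to the 9 chosen genes, and the other family genes had groups apart in 1 of 6.

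**Figure D4:**
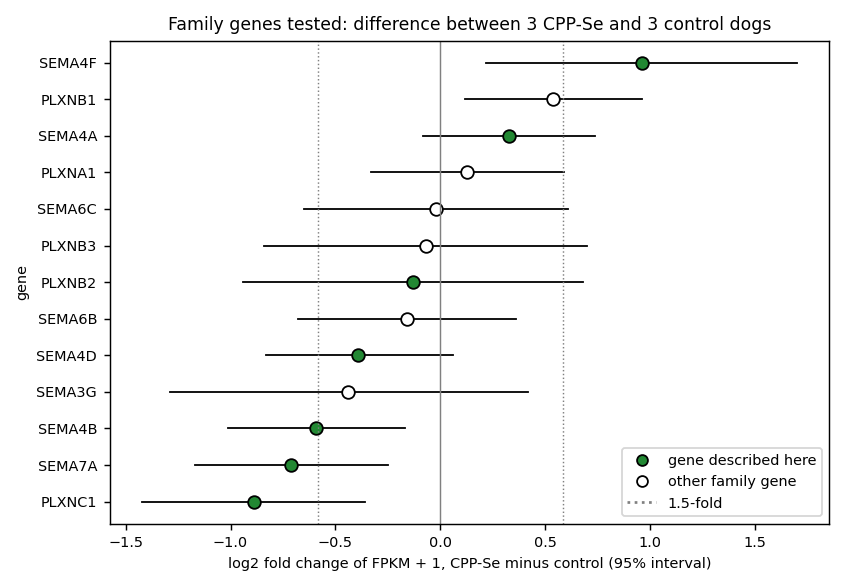
Log2 fold change of FPKM + 1 (CPP-Se minus control, 3 dogs each) with its 95% interval for the 13 family genes tested, filled for the genes described here and open for the other family genes, with dotted lines at a 1.5-fold change. PLXNC1, at -0.89, and SEMA4F, at 0.96, were at the ends, and no gene was called.

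Partners of the pathway were taken from a list of 48 other receptors, signalling proteins and shedding proteases, of which 34 were tested. None was called in limma, in the negative binomial model or in limma-voom with sample quality weights, 4 had an unadjusted p under 0.05 (11.8%, against 16.0% of all genes), and 8 had groups apart (23.5%, against 23.0% of all genes), with 2 higher and 6 lower. The median log2 fold change was -0.11. The 5 highest were DPYSL3 at 0.89, RRAS2 at 0.66, FYN at 0.56, FARP2 at 0.38 and FES at 0.23. RRAS2 encodes a Ras family GTPase and measured 2.96 ± 0.631 and 5.20 ± 0.233 FPKM (SD, n = 3 each, limma adjusted p = 0.188). The 5 lowest were MMP14 at -0.63, LIMK2 at -0.58, DPYSL2 at -0.49, ITGB1 at -0.42 and RAC1 at -0.42. LIMK2 encodes a kinase that acts on cofilin, and ITGB1 the β1 integrin that SEMA7A binds. The proteases ADAM10 and ADAM17, which cut proteins from the cell surface, had log2 fold changes of -0.34 and -0.31 with groups apart (limma adjusted p = 0.396 and 0.432).

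Whole blood is a mixture, and fewer cells of a type cannot be told apart from less RNA per cell. Levels of cell type markers are given beside these genes. None of the 68 tested markers was called in limma, where the smallest adjusted p was 0.138 and 33 had an unadjusted p under 0.05 (16.0% of all genes). The negative binomial model called 19 of them (4.0% of all genes), and 8 were called by limma-voom with sample quality weights (1.58% of all genes). CD163, a monocyte marker with a CPP-Se mean of 0.454 FPKM, and PAX5, a B cell marker with a control mean of 0.837 FPKM, reached the level for testing only through the other group. All 7 tested monocyte markers, CD163 included, had lower values in the CPP-Se group with groups apart, against 12.6% of all genes lower and 10.4% higher (median log2 fold change -0.97), and their summed FPKM was 213 to 220 in the control dogs and 89.5 to 130 in the CPP-Se dogs. Of the 7 neutrophil markers tested, 6 had lower values and 3 had groups apart (median -0.80), with sums of 2240 to 2997 and 1736 to 2227 FPKM. All 8 markers of NK and cytotoxic cells had higher values, 3 of them with groups apart (median 0.94), with sums of 15.1 to 32.2 and 42.6 to 69.6 FPKM. Of the T cell markers, 12 of 14 had higher values, and the groups were apart with 7 higher and 1 lower (median 0.74), yet their sum was 1119 to 1394 and 975 to 1107 FPKM, since CD4, which dog neutrophils also express, held most of it. Without CD4, left out after its values were seen, the T cell sum was 138 to 270 and 312 to 391 FPKM. Of the B cell markers, 8 of 9 had higher values and 5 had groups apart (median 0.62), with sums of 282 to 404 and 430 to 471 FPKM. Markers of eosinophils, basophils and mast cells had a median of 1.05, with sums of 14.6 to 28.2 and 14.6 to 235 FPKM, platelet markers -0.23, with 943 to 1866 and 625 to 2255 FPKM, and red cell markers 0.53, with 1385 to 3567 and 2297 to 3418 FPKM. Of all tested genes, 4884 of 9847 had a log2 fold change above 0. The sums of NK and cytotoxic markers and of T cell markers without CD4 were apart under all 5 scalings. At a common FPKM sum the monocyte sums overlapped, at 197 to 216 and 77.1 to 200.04, as did the sums of the B cell, neutrophil and whole T cell lists. These 4 also overlapped when scaled to reads on genes. When scaled to reads outside hemoglobin genes, the neutrophil and whole T cell sums overlapped and the monocyte and B cell sums were apart. No marker listed in the table was at 0 in every dog. The part of these cell types in the semaphorin and plexin values was not tested.

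The genes whose profile over the 6 dogs was nearest to that of a semaphorin or plexin were found by the root mean square difference between log2(FPKM + 1) values, each centred on its own mean. This measure is a description over 6 dogs of genes that share libraries. For SEMA4F, whose own spread was 0.581, the nearest was ZAP70 (0.101), which encodes a kinase of T cell receptor signalling. This match depended on the pseudocount. With 0.1 in place of 1, tried after seeing the data, the difference was 0.454 against a spread of 1.02 and ZAP70 was the 34th nearest gene, and the ratio of the group means was 3.15 for SEMA4F and 2.10 for ZAP70. For PLXNC1, with a spread of 0.503, the 3 nearest were IL1RN (0.0556), AKAP13 (0.0660) and MXD1 (0.0706), of which IL1RN encodes the interleukin-1 receptor antagonist. For SEMA7A (spread 0.390) they were EDEM2 (0.0656), CD180 (0.0745) and STARD7 (0.0755), and for SEMA4D (spread 0.237) CASC3 (0.0389), DIP2B (0.0455) and EXOC6 (0.0534). Among the 78 pairs of the 13 tested family genes, SEMA7A and PLXNC1 were the closest, at 0.147, followed by SEMA6C and PLXNA1 at 0.148. The first pair was singled out after its value was seen, and it was also the closest with a pseudocount of 0.1, at 0.160. Among 8130 other tested genes with a symbol, PLXNC1 was the 71st nearest to SEMA7A, and the 91st with a pseudocount of 0.1.

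**Figure D5:**
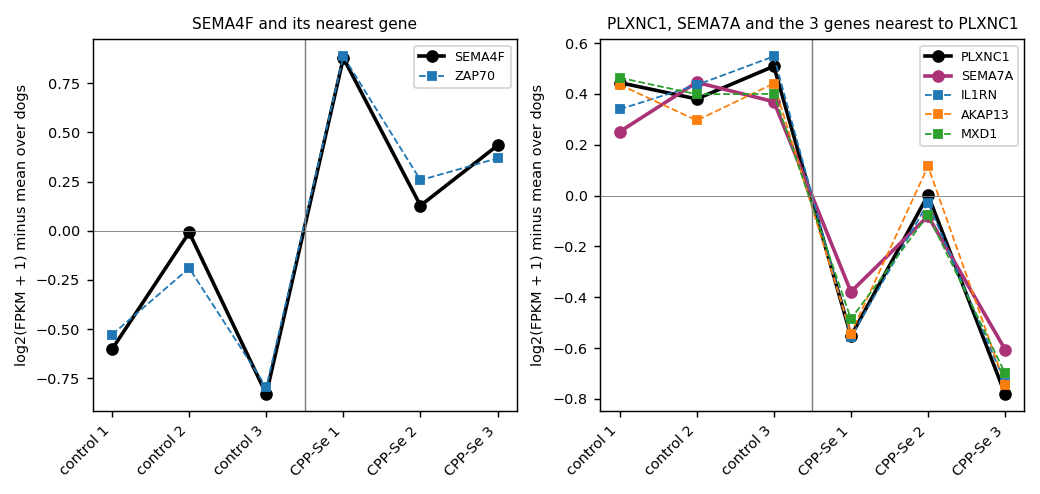
Log2(FPKM + 1) minus the mean over dogs for each of 6 dogs, for SEMA4F and its nearest gene (left) and for PLXNC1, SEMA7A and the 3 genes nearest to PLXNC1 (right). SEMA4F differed from ZAP70 by 0.101 (root mean square) at this pseudocount, and SEMA7A differed from PLXNC1 by 0.147.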

How the data were processed

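Whole blood RNA of 3 control and 3 CPP-Se dogs, taken on day 30, was compared, with a library for each dog. The authors used Trizol for extraction, selected poly-A RNA, prepared NEBNext Ultra libraries, aligned reads with HISAT2 2.0.5 and deposited FPKM per gene with gene lengths in bases. The submitters' processing notes also name CASAVA 2.19, fastp 0.19.7 and featureCounts 1.5.0-p3. The library size behind the FPKM, the use of strand and the handling of shared reads are not given in the sources used here. The authors called DEGs with DESeq2, and the paper names SEMA4F among its immune-related DEGs. Here limma was used, since the deposited unit is FPKM, and count models of the recovered reads were alternatives.

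Dogs were grouped by library title. The product of FPKM and gene length was a multiple of a fixed step in each library, and these multiples were taken as reads, and 3 reads were taken as the floor. Genes averaging 1 FPKM or more over the dogs were tested on log2(FPKM + 1) with limma 3.58.1 in R 4.3.3 (lmFit, eBayes with a trend, two-sided, Benjamini-Hochberg adjustment), with thresholds of 0.05 and 1.5-fold. Python 3.11.15 was used for the tables, with numpy 2.4.6 and pandas 2.3.3, and figures with matplotlib 3.10.9. Depth per dog and the 3 dogs per group limit the precision. An exact permutation test of 3 against 3 cannot go below p = 0.1, so none was used for single values.

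The genes described and all lists were chosen with earlier results of these data known. Named were the 9 genes, the other family genes that were tested, and up to 5 partners in each direction with the largest fold change. For SEMA4F, SEMA7A, PLXNC1 and SEMA4D the 3 tested genes nearest in profile were added, not all of which are reported here. The study lists SEMA4F, SEMA7A and PLXNC1 among its DEGs, and SEMA4D had the highest mean FPKM. Genes overlapping a named gene, the receptor CD72, the proteases, low family genes and the markers CD4, CD163 and PAX5 were named outside this rule. Alternatives were another pseudocount, other filters, 4 scalings, eBayes options, array weights, the replicate block, limma-voom with and without quality weights, a negative binomial model with dispersions shrunk to a trend and a Wald test, no fold threshold, and each dog left out. Whether replicate numbers pair dogs was checked by the correlation of deviations from the group means. No protein or promoter sequences were used here.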

Additional observations from a re-analysis of the deposited data

How the results depend on the processing

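Under 20 alternatives, 6 of the 7 tested genes kept the direction of their log2 fold change, and PLXNB2 turned to 0.01 at a common FPKM sum and when scaled to reads on genes, and to 0.04 with limma-voom with sample quality weights, with -0.38 to 0.16 when each dog was left out. Leaving out each dog gave -0.31 to 0.00 for SEMA6B and -0.82 to -0.24 for SEMA3G. The number of DEGs over all genes was 3, and it was 0 with a pseudocount of 0.1, 0 without a filter, 12 at a common FPKM sum, 23 when scaled to reads on genes, 1 with limma-voom, 156 with sample quality weights and 394 with the negative binomial model. It ranged from 0 to 14 when each dog was left out, with 14 without CPP-Se dog 2. Of the 9 genes and of the whole family, 1 (PLXNC1) was called with sample quality weights and 2 (PLXNC1 and SEMA4F) with the negative binomial model. Their adjusted p ranged over the alternatives from 0.0175 to 0.673 for PLXNC1 and from 0.0136 to 0.512 for SEMA4F. The cause of these differences was not tested. With the replicate block 1 gene was called. Same-numbered dogs correlated at 0.0165, -0.0900 and -0.0433, and 0 of 3 matched best with their own number. This check showed no pairing by number but, with 3 dogs per group, cannot exclude one. Depth limited SEMA4C, PLXND1 and SEMA4F, at 5 to 94 reads per dog.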
